A study of Mus musculus with 31 samples.

Results

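The replication-dependent histone genes encode the core histones H2A, H2B, H3 and H4 and the linker histone H1 that package newly copied DNA. They were taken as every protein-coding gene of the GENCODE M21 annotation (GRCm38) whose symbol starts with Hist1h, Hist2h, Hist3h or Hist4. The rule gave 67 genes of the 55487 in the Smart-seq2 table and the 34865 in the bulk table. A further 3 symbols of the pattern (Hist1h2aj, Hist1h2al and Hist3h2bb-ps) are annotated as pseudogenes and were left out. The 67 comprise 6 H1, 18 H2A, 18 H2B, 12 H3 and 13 H4 genes. Chromosome 13 carries 54 of them (cluster 1), chromosome 3 carries 10 (cluster 2), chromosome 11 carries 2 (cluster 3: Hist3h2a and Hist3h2ba) and chromosome 6 carries 1 (Hist4h4).

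The study sequenced mouse embryonic brain in 4 groups. Bulk libraries were made from the dorsal diencephalon (3 libraries) and the ventral diencephalon (3 libraries) of wild-type mice at embryonic day E10.5. Smart-seq2, a full-length method for very small RNA inputs, was run on 13 libraries labelled Emx1-cre(+/-)::MDMD::Axin2(-/-), called null here, and 12 labelled Emx1-cre(+/-)::MDMD::Axin2(+/+), called wild type here. Both came from the medial cortex at E11.5 of mice bred as Emx1-CreERT2::MADM-11::Axin2LacZ/+. All Smart-seq2 libraries therefore carry the Cre and the MADM cassettes, the wild-type ones included. MADM (mosaic analysis with double markers) makes mutant and wild-type sister cells of different colour by recombining a chromosome pair, here chromosome 11, which holds Axin2 and also cluster 3 of the histone genes. Emx1 drives the Cre in progenitors of the dorsal telencephalon, so only cells of that lineage and their progeny can be labelled. Axin2 is a negative regulator and target of Wnt signalling. The labels call the Smart-seq2 samples cells and name no animal. Each genotype therefore counts as 1 sample, and no test between genotypes was made. Nothing in the bulk labels ties the 3 libraries of a region to different embryos. The p-values below therefore reflect library-to-library spread only, part of which may be technical.

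Most replication-dependent histone mRNAs are made in S phase, when DNA is copied, and are degraded when replication ends. They usually have no introns and, unlike other mRNAs, no poly(A) tail. Their 3′ end is a short stem-loop, bound by the stem-loop binding protein Slbp and formed by cleavage with the U7 snRNP, of which Lsm10 and Lsm11 are parts. Some of the genes also give polyadenylated transcripts, chiefly in cells that have left the cycle. Smart-seq2 primes cDNA synthesis with oligo-dT and reads polyadenylated RNA best. How RNA was selected for the bulk libraries is not given in the sources used here. A level of a histone gene below is thus the level of the RNA that the library method could capture.

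The stem-loop was looked for in the annotated transcripts of the 67 genes because it decides how their RNA ends. The letters searched on the transcript strand were GG, any 2 bases, CTTTT, any base, AG, any 2 bases and CC, 16 in all. Of 21901 genes with a protein-coding transcript, 0.329% (72 genes) held them, and 44 of those were histone cluster genes. Only 0.128% of the genes outside the 67 held them. A few spellings of the stem-loop accounted for most matches, and they followed the histone class. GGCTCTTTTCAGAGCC was found in 26 genes of classes H1, H2A, H2B and H3 and in no H4 gene. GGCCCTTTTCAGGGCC was found in 7 genes, all H4. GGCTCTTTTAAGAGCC was found in 6 genes, of which 3 were H3, 2 were H2B and 1 was H1. The annotated stem-loops of 6 genes that the results turn on are shown 5′ to 3′ on the transcript strand, with the stem-loop letters in capitals and up to 5 bases on either side.
Hist1h2ap: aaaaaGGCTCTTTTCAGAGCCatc
Hist3h2ba: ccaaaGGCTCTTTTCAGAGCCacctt
Hist3h2a: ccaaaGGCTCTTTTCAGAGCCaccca
Hist2h3c1: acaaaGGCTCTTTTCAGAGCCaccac
Hist1h2bb: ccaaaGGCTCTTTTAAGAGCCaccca
Hist1h4m: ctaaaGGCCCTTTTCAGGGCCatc
On GRCm38 these stretches lie at chr13:21833026-21833049 (minus strand) for Hist1h2ap, chr11:58949344-58949369 (plus) for Hist3h2ba, chr11:58955167-58955192 (plus) for Hist3h2a, chr3:96247322-96247347 (plus) for Hist2h3c1, chr13:23747198-23747223 (plus) for Hist1h2bb and chr13:21812124-21812147 (plus) for Hist1h4m.

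The distance from these letters to the annotated transcript end divided the genes into 3 nearly equal groups. In 22 genes the stem-loop lay within 100 bases of an annotated end. Hist1h2ap, an H2A gene, ended 3 bases after it, as a processed histone mRNA does. In another 22 genes the nearest annotated end lay farther on. It was 169 bases after the stem-loop in Hist3h2ba, 840 in the linker histone gene Hist1h1c, 1643 in Hist3h2a and 2010 in Hist1h2ac. No match was found in the other 23 genes, and the models of 11 of these stop at the stop codon, so that no 3′ end is annotated. Hist1h1b (H1), Hist1h2br (H2B) and Hist1h2bc (H2B) were among those without a match, which says only that these letters are not in the annotated transcripts. The median level in Smart-seq2 was 18.1 TPM (the share of transcripts, scaled to a fixed total) for the 22 genes with the stem-loop near the end, 3.31 TPM for the 22 with it farther inside and 8.15 TPM for the 23 without it. In bulk the corresponding medians were 1.88, 3.34 and 1.62 CPM (counts scaled to library size) per kb of exon. The group with the highest median thus differed between the assays, and within each group levels spread over several orders of magnitude.

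**Figure D1:**
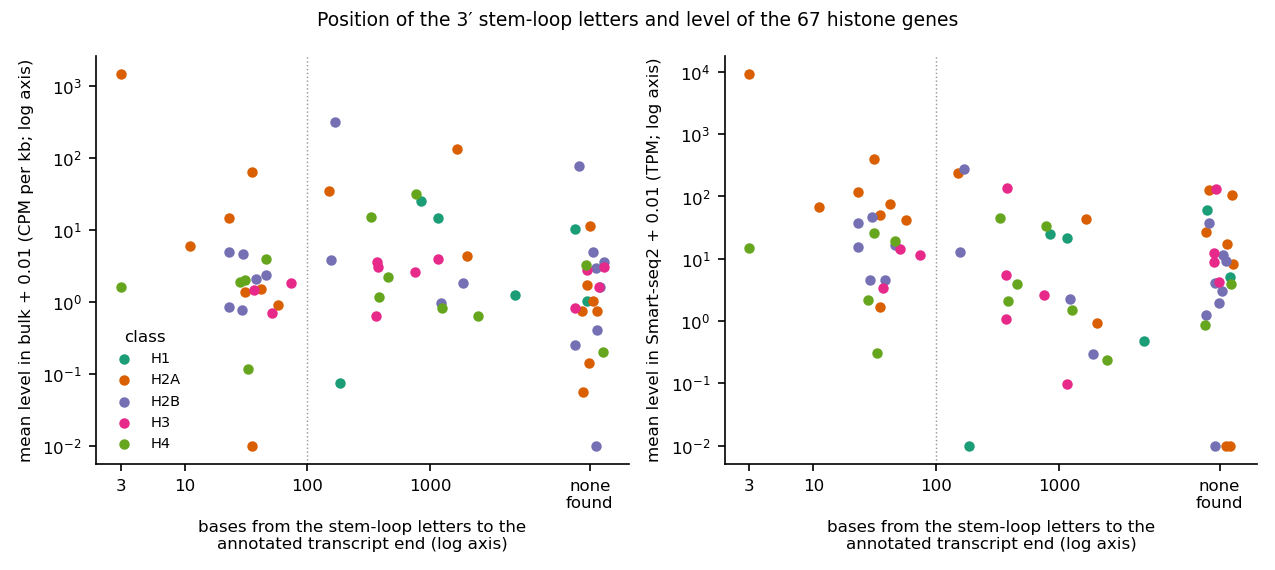
Mean level of each of the 67 histone genes (points, coloured by class; 0.01 is added so that genes at 0 can be drawn) in bulk (left, CPM per kb of exon) and in Smart-seq2 (right, TPM) against the number of bases from the stem-loop letters to the nearest annotated transcript end, with genes without a match at the right edge. Hist1h2ap, 3 bases from its end, is the highest point in both panels, and the dotted line marks 100 bases.

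Near-identical copies limit what can be said of single histone genes. The median histone gene shared 49.5% of its 50-base stretches with transcripts of other genes, and 32 of the 67 shared over 50%. The H1 genes shared least (median 1.13%) and the H2A genes most (median 73.0%). Hist1h1b shared 0%, so its reads can be placed. Hist1h2ap shared 93.1% (most with Hist1h2ao), Hist1h2br 88.7% (most with Hist1h2bq), and Hist2h3c1 100% (most with Gm20634, which overlaps it on the same strand). The split of reads between such copies depends on the authors' counting and is uncertain for these genes. An annotated gene lay on the opposite strand of 21 of the 67, Hist1h2ap among them (Gm44466), and whether the counting used strand is not given in the sources used here.

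Histone genes of cluster 1 often lie head to head, an H2A and an H2B gene sharing the DNA between their starts. Among the 62 genes with a RefSeq promoter window (GRCm38.p6), 10 H2A and H2B pairs had overlapping windows of 250 bases before the start. Hist1h2ap and Hist1h2br form such a pair, with 233 bases in common. The promoter stretch of this pair and that of Hist1h1b are shown because these 3 genes passed the bulk test in the same direction. Each stretch is 200 bases before the annotated transcript, 5′ to 3′ on the strand of the gene named, from RefSeq, GRCm38.p6. Capitals mark the motifs searched on both strands: the TATA box TATAAA, the CCAAT box CCAAT, the octamer ATTTGCAT, the H1 box AAACACA and the H4 element, which is CAATC, any base, GGTCC.
Hist1h2ap, chr13:21833508-21833707, minus strand: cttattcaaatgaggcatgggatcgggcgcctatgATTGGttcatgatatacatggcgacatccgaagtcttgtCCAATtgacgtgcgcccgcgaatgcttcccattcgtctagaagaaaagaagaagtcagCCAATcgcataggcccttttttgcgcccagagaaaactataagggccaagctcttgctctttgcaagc
Hist1h1b, chr13:21780626-21780825, minus strand: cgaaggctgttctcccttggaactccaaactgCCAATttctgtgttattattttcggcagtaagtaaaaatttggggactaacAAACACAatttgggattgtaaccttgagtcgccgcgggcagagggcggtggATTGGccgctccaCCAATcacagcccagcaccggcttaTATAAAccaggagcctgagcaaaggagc
Both stretches hold 3 CCAAT boxes in either orientation, and Hist1h1b also holds a TATA box and an H1 box. Over the 250-base windows, a CCAAT box was found in 51 of the 62 histone genes, against 37.5% of all 27025 genes with a window. It was found in 18 of 18 H2A and 16 of 16 H2B windows but in 3 of 12 H4 windows. The octamer was found in 7 H2A and 7 H2B windows and in none of the H1, H3 and H4 windows (1.81% of all genes), and the H1 box in 5 of 6 H1, 2 of 18 H2A and 2 of 16 H2B windows (7.20% of all genes). The TATA box was found in 29 of the 62 (14.3% of all genes), and the H4 element in 2 of 12 H4 windows (0.0555% of all genes). These matches are a description of the letters and not of binding.

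The bulk libraries held between 17604166 and 20838002 counts, which were rounded and tested with edgeR. The labelled regions matched their marker lists: summed over 9 genes each, dorsal diencephalon markers stood at 1379 to 1634 CPM (dorsal) and 87.0 to 89.0 CPM (ventral), and ventral diencephalon (hypothalamus) markers at 47.8 to 58.0 and 642 to 1065 CPM. All 9 medial cortical markers were also detected in bulk, with a sum of 1470 to 1553 CPM (dorsal) and 45.5 to 52.0 CPM (ventral). Progenitor markers summed to 766 to 1039 CPM (dorsal) and 663 to 819 CPM (ventral), and the 11 neuronal markers to 5786 to 6438 and 6194 to 6620 CPM, so both regions mixed cycling and post-mitotic cells. Single progenitor markers went both ways. Pax6, Nes, Notch1 and Fabp7 were called higher in dorsal, Sox1 and Sox3 higher in ventral, and Sox2, Vim, Hes1 and Hes5 were not called. Single neuronal markers were also called in both directions. Library 3 of each region stood apart: log2 levels correlated at 0.959 and 0.962 with the other dorsal and at 0.914 and 0.925 with the other ventral libraries, against 0.995 and 0.987 between libraries 1 and 2. Dorsal library 3 also had 2.44% of its counts in Lars2 against 0.0295% to 0.277% in the others. Markers of small intestine and exocrine pancreas took 0.298% to 1.13% of ventral counts and 0.00125% to 0.00183% of dorsal counts. In bulk tissue, fewer cells of a type and less RNA per cell cannot be told apart.

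In bulk, the summed histone RNA stood at 1643, 1390 and 2684 CPM in the dorsal libraries and at 1372, 1136 and 1322 CPM in the ventral libraries. Every dorsal library was above every ventral library, and the ratio of the means was 1.49. Nearly all of that gap came from Hist1h2ap. Without it the sums were 749, 711 and 1238 CPM (dorsal) and 876, 746 and 933 CPM (ventral), which overlapped, with a ratio of 1.06. Dorsal library 3 had the highest sum by both measures. By class, the ratio of dorsal to ventral means was 1.69 for H1, 1.63 for H2A, 1.19 for H2B, 0.701 for H3 and 1.22 for H4. Without dorsal library 3 the ratio of all histone RNA was 1.19, and 2 ratios turned below 1, that of H2B to 0.87 and that of the sum without Hist1h2ap to 0.857. The latter was 0.994 without ventral library 2.

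Among the H2A genes, which encode a histone of the nucleosome's outer dimers, Hist1h2ap was the most abundant of all 67 histone genes. It was measured at 894, 679 and 1446 CPM (dorsal) and 496, 390 and 389 CPM (ventral). All dorsal values lay above all ventral values, and it made up 48.9% to 54.4% of histone counts in dorsal and 29.4% to 36.1% in ventral libraries. Hist3h2a, on chromosome 11, was measured at 250, 261 and 321 CPM (dorsal) and 285, 276 and 346 CPM (ventral), which overlapped. Hist2h2aa1 stood at 14.6, 13.9 and 38.5 CPM (dorsal) and 51.5, 36.4 and 74.7 CPM (ventral), with dorsal library 3 alone reaching into the ventral range.

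Among the H2B genes, the partner of H2A in the dimer, Hist3h2ba was highest per length. Its values were 131, 152 and 308 CPM (dorsal) and 252, 162 and 172 CPM (ventral). Hist1h2bc followed with 78.1, 68.3 and 179 CPM (dorsal) and 60.2, 66.2 and 88.7 CPM (ventral), and Hist1h2bj with 2.40, 1.44 and 5.44 CPM and 0.740, 1.35 and 2.56 CPM. In all 3 genes the regions overlapped, and the highest value of each was that of dorsal library 3. Hist1h2br, of lower level per kb, was measured at 11.8, 7.92 and 12.8 CPM (dorsal) and 3.4, 2.38 and 1.11 CPM (ventral), without overlap.

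The linker histone genes, whose product binds DNA between nucleosomes, were led by Hist1h1c at 41.9, 34.2 and 71.0 CPM (dorsal) and 24.9, 27.0 and 40.6 CPM (ventral). Hist1h1e stood at 29.5, 22.2 and 43.6 CPM (dorsal) and 27.3, 20.5 and 25.6 CPM (ventral). Both overlapped between regions. Hist1h1b, which encodes linker histone H1.5, was at 9.72, 8.12 and 23.2 CPM (dorsal) and 1.78, 2.65 and 1.28 CPM (ventral), so that the lowest dorsal library was above the highest ventral library.

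The H3 and H4 genes form the inner tetramer of the nucleosome. Hist2h3c1 was measured at 4.32, 3.36 and 3.29 CPM (dorsal) and 10.3, 6.65 and 15.4 CPM (ventral), and Hist1h3e at 2.49, 1.63 and 1.93 CPM and 2.61, 3.57 and 5.79 CPM. Both were higher in all ventral libraries. Hist2h3c2 stood at 1.41, 2.31 and 2.61 CPM (dorsal) and 2.37, 2.7 and 7.51 CPM (ventral), which overlapped. Among H4 genes, Hist1h4d was at 44.1, 30.4 and 37.1 CPM (dorsal) and 42.3, 31.6 and 33.9 CPM (ventral), and Hist1h4i at 9.86, 9.37 and 21.8 CPM and 7.74, 6.98 and 9.74 CPM. Hist1h4h stood at 1.83, 1.54 and 2.89 CPM (dorsal) and 1.48, 1.35 and 2.11 CPM (ventral). All 3 H4 genes overlapped between regions.

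**Figure D2:**
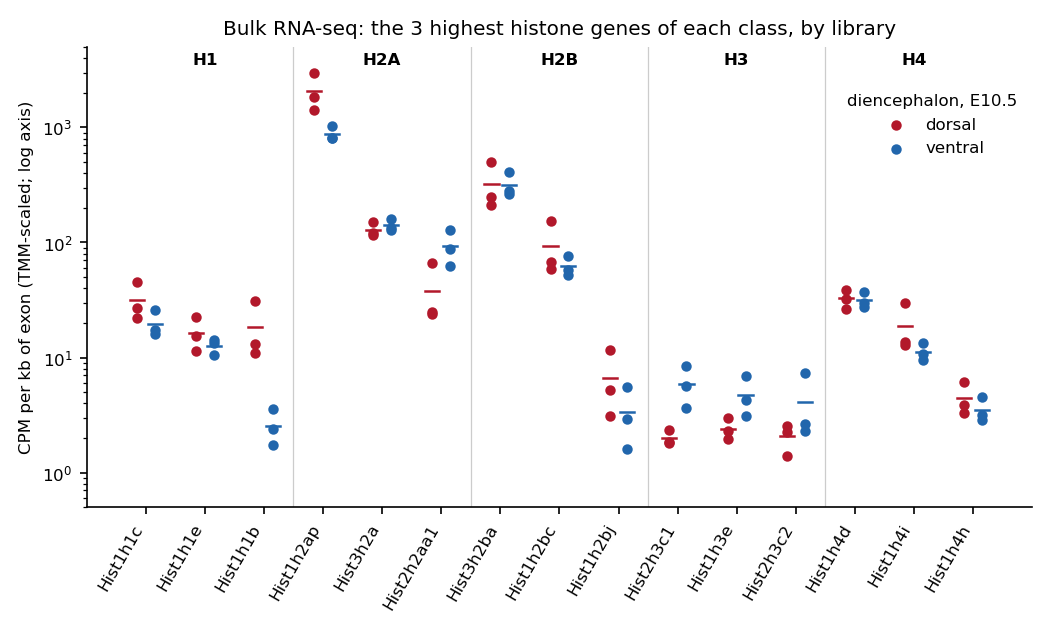
Level of the 3 highest histone genes of each class in bulk RNA-seq, in CPM per kb of exon on a log axis, for each dorsal (red) and ventral (blue) library; horizontal lines are the means of 3 libraries. Hist1h2ap exceeds every other gene, and the regions are separate for Hist1h1b, Hist1h2ap, Hist2h3c1 and Hist1h3e.

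Per kb of exon, Hist1h2ap averaged 1485 CPM over the 6 libraries, followed by Hist3h2ba (319), Hist3h2a (135), Hist1h2bc (77.9) and Hist2h2aa1 (65.3). The highest H4 gene, Hist1h4d, averaged 32.1 CPM per kb, the highest H1 gene, Hist1h1c, 25.6, and the highest H3 gene, Hist2h3c1, 3.96. Of the 67 genes, 38 reached the mean of 1 CPM required for testing and 29 did not. Hist1h2ba and Hist2h2aa2 had 0 counts in all 6 libraries. A count of 0 allows up to 3 counts, or 0.0258 CPM over the 6 libraries, for counting error only.

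In total, 3 histone genes were higher in the dorsal diencephalon and 1 in the ventral diencephalon at an adjusted p under 0.05 (edgeR quasi-likelihood test, Benjamini-Hochberg adjustment over 14701 genes). Hist1h1b was higher in dorsal libraries by 2.84 on the log2 scale (SE 0.546, adjusted p = 0.0103 with edgeR). Hist1h2ap was higher by 1.24 (SE 0.275, adjusted p = 0.0185 with edgeR), a ratio of means of 2.37. Hist1h2br, its head-to-head neighbour, was higher by 2.23 (SE 0.502, adjusted p = 0.0197 with edgeR). Hist2h3c1 was higher in ventral libraries, with a log2 fold change of -1.56 (SE 0.422, adjusted p = 0.0409 with edgeR). The 3 dorsal calls are 7.89% of the 38 genes tested, and 7.14% of all genes tested were called higher in dorsal. The 1 ventral call is 2.63%, against 9.54% of all genes. The dorsal share is near that background, so the count itself is no result about histone genes. The call of Hist2h3c1 was lost without dorsal library 1, dorsal library 2, dorsal library 3 or ventral library 1, where its adjusted p with edgeR reached up to 0.144, those of Hist1h2ap and Hist1h2br were lost without ventral library 2, and that of Hist1h2br also without dorsal library 1 (adjusted p up to 0.0888 with edgeR). Without dorsal library 3, which stood apart, Hist1h1b, Hist1h2ap and Hist1h2br stayed called, and the median log2 fold change of the histone genes fell from 0.36 to 0.07. With replicate number as a block in the fit, Hist1h2ap stayed called, and the calls of Hist1h1b, Hist1h2br and Hist2h3c1 were lost.

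The remaining 34 tested genes did not pass. Their values lay on both sides of 0, with 25 of the 38 tested genes positive and a median log2 fold change of 0.36 against 0.01 for all genes. The closest to the threshold were Hist1h2ag (log2 fold change 1.94, SE 0.569, adjusted p = 0.0540 with edgeR), Hist2h2bb (3.13, SE 1.05, adjusted p = 0.0839 with edgeR) and Hist2h2aa1 (-1.28, SE 0.45, adjusted p = 0.0963 with edgeR). Hist2h2bb was at 0 in ventral library 3, so its fold change depends on the fitting. At an unadjusted p under 0.05 there were 8 genes (21.1% of the 38), against 30.6% of all genes tested. In 9 genes every dorsal library was above every ventral library (23.7%, against 19.0% of all genes tested), and in 2 the reverse held (5.26%, against 20%). The 9 were Hist1h1b, Hist1h1d, Hist1h2ag, Hist1h2ap, Hist1h2br, Hist1h3c, Hist1h3i, Hist2h2bb and Hist2h2be, and the 2 were Hist2h3c1 and Hist1h3e. By class, the median log2 fold change was 0.82 for the 4 H1 genes tested, 0.09 for 8 H2A, 0.29 for 12 H2B, -0.51 for 7 H3 and 0.66 for 7 H4. By cluster it was 0.49 for the 28 genes of cluster 1 tested, -0.19 for the 7 of cluster 2 and -0.06 for the 2 of cluster 3. The 10 genes tested with a stem-loop near the transcript end had a median of 1.07, the 19 with it farther inside 0.01, and the 9 without a match 0.60. Mitochondrially encoded genes took 1.14% to 1.58% of dorsal and 1.73% to 3.74% of ventral counts. Their part in these differences, and that of the intestinal and pancreatic RNA in the ventral libraries, was measured only by leaving genes out before scaling: the 3 dorsal and 1 ventral calls were made without the intestine and pancreas markers, and again without Lars2 and the mitochondrial genes.

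**Figure D3:**
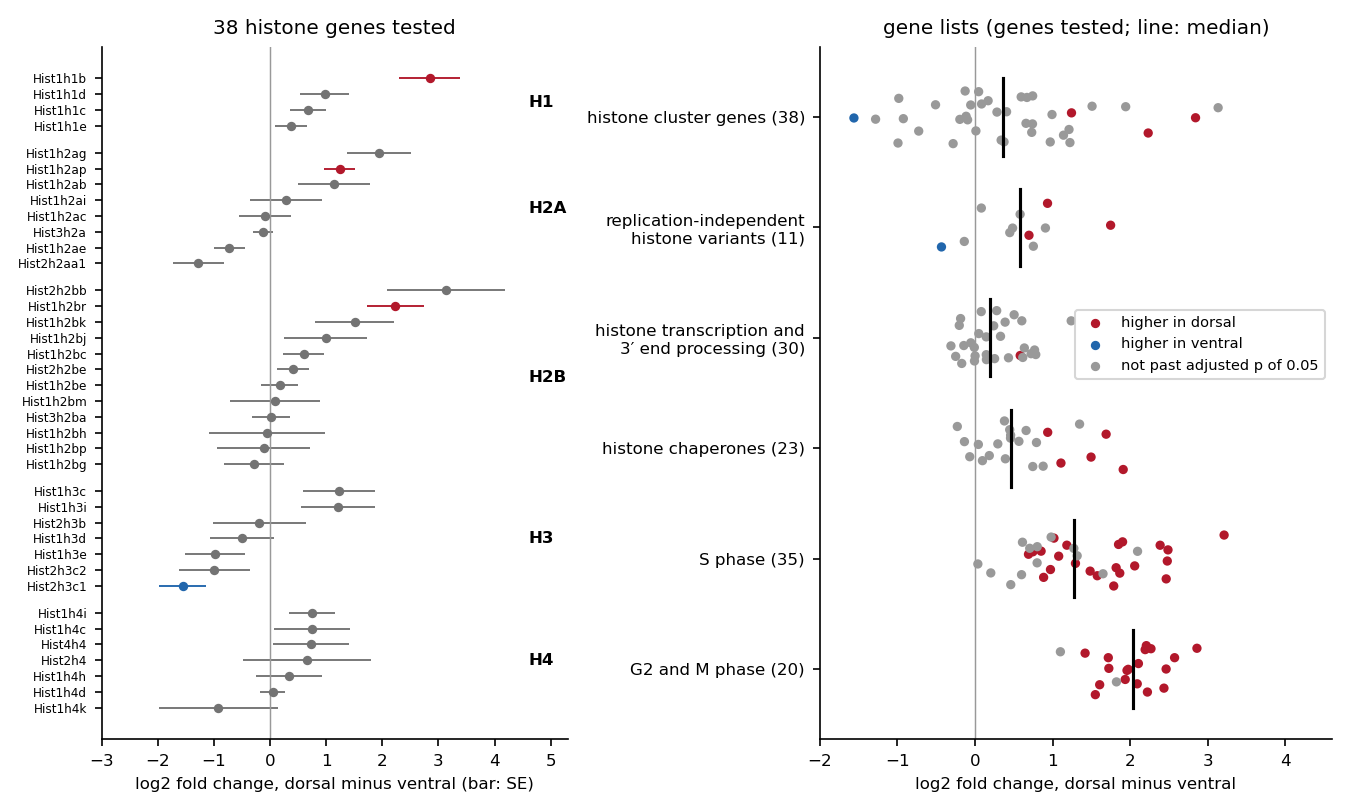
Left, log2 fold change (dorsal minus ventral, with SE) of the 38 histone genes tested in bulk, by class. Right, the same quantity for every tested gene of the histone list and 5 fixed lists, with the median as a black line: red points are higher in dorsal and blue points higher in ventral at an adjusted p under 0.05, and histone genes have a median of 0.36 where S phase genes have 1.27 and G2 and M phase genes 2.03.

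Genes that act around histones in the cell cycle were compared in the same fit. Of the 35 S phase and DNA replication genes tested, 22 were higher in dorsal and 0 in ventral (62.9%, against 7.14% of all genes), with a median log2 fold change of 1.27. Pole, the leading-strand DNA polymerase, was higher by 3.21 (SE 0.565, adjusted p = 0.00706 with edgeR), the thymidine kinase Tk1 by 2.49 (SE 0.294, adjusted p = 0.00120 with edgeR) and Rrm2, a subunit of ribonucleotide reductase, by 2.48 (SE 0.293, adjusted p = 0.00121 with edgeR). Of 20 G2 and M phase genes tested, 18 were higher in dorsal and 0 in ventral, with a median of 2.03. The mitotic motors Kif11 (2.86, SE 0.8, adjusted p = 0.0462 with edgeR) and Cenpe (2.57, SE 0.506, adjusted p = 0.0113 with edgeR) and the kinetochore protein gene Cenpf (2.46, SE 0.257, adjusted p = 6.70e-04 with edgeR) had the largest folds. Ventral library 3 was lowest in each, at 0.89 CPM against 14 and 17.3 CPM for Kif11 and 2.84 CPM against 13.2 and 12.2 CPM for Cenpe. Without it their log2 fold changes were 2.29 and 2.11, and the call of Kif11 was lost without any of the other 5 libraries (adjusted p up to 0.114 with edgeR). Leaving out each library gave 12 to 26 S phase genes higher in dorsal, with 13 without dorsal library 1, 14 without dorsal library 2 and 12 without ventral library 1, and 16 to 19 G2 and M phase genes. The medians stayed within 1.04 to 1.29 and 1.82 to 2.2. The histone genes, which are made in the same phase as the first list, thus had a smaller median than both lists. This difference between lists was not tested.

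Of 30 genes tested whose products transcribe and process histone RNA, 1 was higher in dorsal and 0 in ventral, with a median log2 fold change of 0.19. The called gene was Srrt, an RNA-processing factor that works with the cap-binding complex (0.58, SE 0.163, adjusted p = 0.0462 with edgeR). The list held no call without dorsal library 1, dorsal library 2, ventral library 1 or ventral library 2, 3 dorsal calls without dorsal library 3, and 3 dorsal and 1 ventral calls without ventral library 3. Npat, the coactivator that switches on histone genes at S phase entry, stood at 21.9 ± 2.30 CPM (dorsal) and 13.3 ± 2.24 CPM (ventral) (SD, n = 3; 0.72, SE 0.244, adjusted p = 0.0853 with edgeR). Slbp stood at 158 ± 14.3 and 153 ± 17.1 CPM (0.05, SE 0.163, adjusted p = 0.871 with edgeR). Casp8ap2, which is needed for histone gene expression at the histone locus body, stood at 48.3 ± 3.28 and 45.7 ± 21.3 CPM (0.08, adjusted p = 0.890 with edgeR), and Lsm11 at 36.3 ± 3.06 and 23.7 ± 10 CPM (0.62, adjusted p = 0.263 with edgeR).

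Of the 23 histone chaperone and chromatin assembly genes tested, 5 were higher in dorsal and 0 in ventral, with a median of 0.46. They included Chaf1b (1.91, SE 0.203) and Chaf1a (1.69, SE 0.309), subunits of the CAF-1 complex that deposits H3 and H4 behind the replication fork, and Asf1b (1.5, SE 0.26), which hands H3 and H4 to it. Of the 11 genes tested on the list of replication-independent variants, 3 were higher in dorsal and 1 in ventral. Cenpa, the centromeric H3, was higher in dorsal by 1.75 (SE 0.256, adjusted p = 0.00315 with edgeR), H2afx, whose phosphorylated product marks DNA breaks, by 0.94 (SE 0.198, adjusted p = 0.0155 with edgeR) and the linker histone gene H1f0 by 0.70 (SE 0.178, adjusted p = 0.0327 with edgeR). H3f3b, a source of the replacement histone H3.3, was higher in ventral, at 4290 ± 458 CPM against 3182 ± 14.7 CPM (SD, n = 3; -0.43, SE 0.115, adjusted p = 0.0387 with edgeR). Of 9 genes of G1 arrest and cell cycle exit, 1 was higher in dorsal, the cell cycle inhibitor gene Cdkn1a (1.70, SE 0.372, adjusted p = 0.0178 with edgeR). Leaving out each library gave 4 to 9 chaperone genes higher in dorsal (9 without ventral library 3), 1 to 6 variants (1 without ventral library 2, 6 without dorsal library 3) and 0 to 2 exit genes (0 without dorsal library 1 or 2). A variant was called in ventral only without dorsal library 3 and with all 6 libraries.

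In the Smart-seq2 libraries, the medial cortical markers summed to 280 to 575 TPM (null) and 322 to 681 TPM (wild type). Markers of other cell types were also counted. Red blood cell markers summed to 2749 to 51767 TPM (null) and 1263 to 32471 TPM (wild type), and macrophage markers to 0 to 68.1 and 0 to 512 TPM. The part of this RNA in the TPM of other genes was not tested. Histone cluster genes together took 0.569% to 1.75% of TPM. Hist1h2ap again stood first among them. Its level was 4290 to 14552 TPM (median 10502) in the 13 null libraries and 5581 to 12143 TPM (median 8209) in the 12 wild-type libraries. Null libraries spread more widely: 2 of the 13 lay below every wild-type library and 5 lay above every wild-type library. Hist1h2ap made up 55.4% to 88.4% of histone TPM and ranked between 1 and 11 among all genes of a library. Its mean was 10014 ± 3271 TPM in null and 8361 ± 1933 TPM in wild-type libraries (SD over libraries), a difference of 0.20 in mean log2(TPM + 1), the scale of all genotype differences below.

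Detection of the other histone genes was uneven. With detection set at 1 TPM, 11 of the 67 were detected in all 25 libraries, 20 in at least 20, and 11 in 1 to 5. Hist1h1t, Hist1h2aa, Hist1h2ba and Hist2h2ab were listed at 0 in every library. Between 26 and 47 histone genes were detected in a null library (median 39) and between 25 and 39 in a wild-type library (median 33). All genes detected numbered 7863 to 11852 in null and 8693 to 12209 in wild-type libraries, with medians of 10791 and 11271.

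By class, the next H2A genes were Hist1h2ao at 62.1 to 986 TPM (median 353) in null and 120 to 727 TPM (median 248) in wild-type libraries, and Hist1h2ae at 86.3 to 1102 TPM (median 195) and 79.7 to 315 TPM (median 166). Among H2B genes, Hist3h2ba led with 13.6 to 534 TPM (median 270) in null and 97.5 to 472 TPM (median 255) in wild-type libraries. Hist1h2bk stood at 0 to 108 TPM (median 53.7) and 0 to 102 TPM (median 30.7). Each of these genes overlapped between genotypes.

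Hist1h1b led the linker histone genes with 19.1 to 207 TPM (median 47.5) in null and 14.9 to 113 TPM (median 54.8) in wild-type libraries. Hist1h1c stood at 3.4 to 107 TPM (median 19.5) and 5.51 to 52.5 TPM (median 23.2), and Hist1h1e at 1.79 to 50.3 TPM (median 25.6) and 8 to 36.1 TPM (median 13.1). Medians of null libraries were thus lower for Hist1h1b and Hist1h1c and higher for Hist1h1e.

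Among H3 genes, Hist2h3c2 stood at 4.51 to 1739 TPM (median 56.6) in null and 12.7 to 126 TPM (median 63.5) in wild-type libraries. A single null library held the value of 1739 TPM, which raised the null mean to 205 ± 465 TPM while the null median stayed below that of wild type. Hist2h3b stood at 11.1 to 329 TPM (median 109) and 0 to 293 TPM (median 95.4). Among H4 genes, Hist1h4i was at 0 to 117 TPM (median 51.1) in null and 0 to 83.8 TPM (median 40.6) in wild-type libraries, Hist1h4d at 6.57 to 303 TPM (median 26.3) and 8.01 to 50.7 TPM (median 17.4), and Hist1h4n at 0 to 113 TPM (median 18.7) and 0 to 53.4 TPM (median 15.8). The median of all 3 H4 genes was higher in null libraries.

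**Figure D4:**
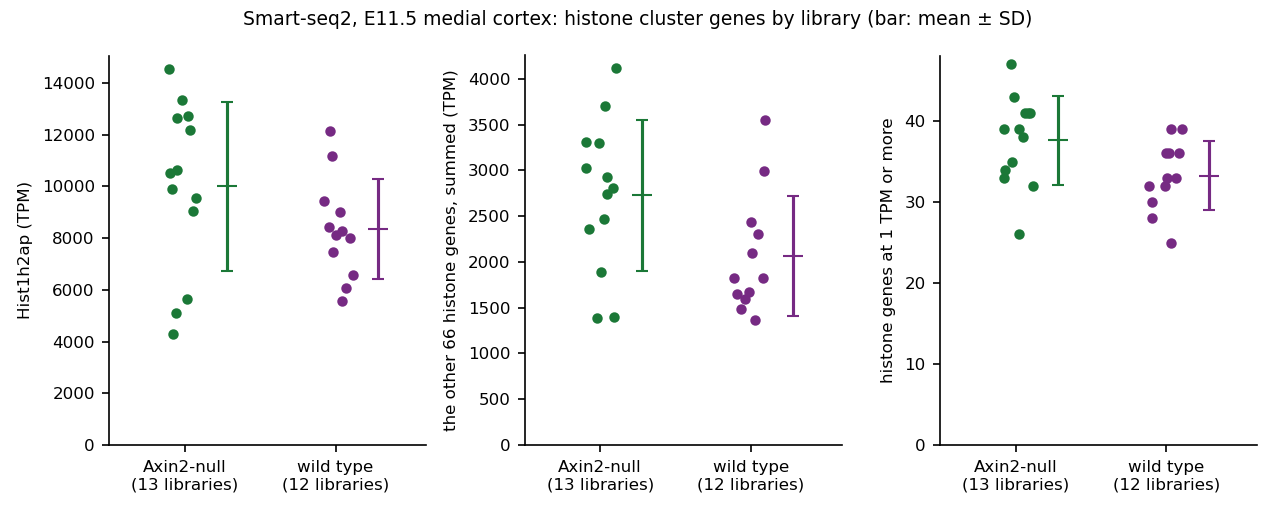
Hist1h2ap (left, TPM), the sum of the other 66 histone genes (middle, TPM) and the number of histone genes at 1 TPM or more (right) in each Smart-seq2 library of the null and wild-type groups, with mean ± SD beside the points. The means of null libraries are higher in each panel (10014 against 8361 TPM, 2726 against 2067 TPM and 37.6 against 33.3 genes), and the groups overlap in each.

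The summed histone level was 5687 to 17480 TPM (median 13459; mean 12740 ± 3670, SD) in null and 7718 to 13740 TPM (median 10167; mean 10428 ± 2071, SD) in wild-type libraries. Without Hist1h2ap the sums were 1391 to 4118 TPM (median 2808) and 1363 to 3552 TPM (median 1823). The genotypes overlapped in both sums. Of the 67 genes, 56 averaged 1 TPM or more and were compared, and 11 were below it. The difference of means was positive, that is higher in null, for 43 of the 56, with a median of 0.44, while over all 13680 genes compared the median was -0.22. No histone gene differed by more than the larger SD of its 2 genotypes, and in all 56 the ranges of the genotypes overlapped. The same was not counted over all genes, so it is no result particular to histone genes. As medians by class, the difference was 0.30 for 4 H1 genes, 0.44 for 15 H2A, 0.41 for 16 H2B, 0.43 for 11 H3 and 0.60 for 10 H4.

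In total, 9 histone genes had a difference of 1 or more, all higher in null. They are 16.1% of the 56 compared, against 1.39% of all genes, and 0 were lower by that size, against 8.14% of all genes. The 4 with the largest difference were Hist1h2bb (2.40), Hist1h2bj (1.81), Hist1h4m (1.80) and Hist1h3b (1.61). Hist1h2bb, an H2B gene, was detected in 8 of 13 null libraries, at up to 252 TPM, and in 1 of 12 wild-type libraries, at 7.41 TPM. Hist1h2bj was detected in 13 null libraries (5.32 to 126 TPM, median 42.1) and 9 wild-type libraries (0 to 129 TPM, median 12.1). Hist1h4m, which shares 89.8% of its 50-base stretches with other genes, was detected in 8 null and 3 wild-type libraries, and Hist1h3b in 12 null and 7 wild-type libraries (medians 18.9 and 3.49 TPM). The other 5 were Hist1h1a, Hist1h2an, Hist1h2bg, Hist1h3i and Hist2h4, and of all 9 each was detected in 6 to 22 of the 25 libraries. The minimum of 1 TPM was a mean over both genotypes together. Hist1h2bb (mean 29.4 TPM in null, 0.618 TPM in wild type) and Hist2h4 (2.75 and 0.185 TPM) passed it only through the null libraries. Their place in the 16.1% thus partly follows from the filter, and how many of all genes passed in this way was not counted.

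The count of 9 depended on how low values were treated. With a pseudocount of 0.1 it was 21, with 2 genes lower in null, and with a pseudocount of 10 it was 0. Leaving out the 4 null and 1 wild-type libraries with under 9000 genes detected gave 14. The 11 histone genes detected in every library held no difference of that size. Of these 11, 9 were positive, with a median of 0.35. Hist3h2ba was lower in null by this measure (-0.30), and Hist1h1c was near 0 (-0.02). CT010467.1, an rRNA gene on chromosome 17, took 1.05% to 32.7% of TPM, and without the 2 null and 2 wild-type libraries in which it took more than 20% the count was 16. How many of all genes passed that size was not counted at these other settings. The median over all genes also moved, to -0.325 with a pseudocount of 0.1 and -0.0964 with 10.

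Gene length moved with the genotype difference. Protein-coding genes other than the 67 had a median difference of 0.08 at up to 500 bases of exon (38 genes), 0.24 at 500 to 1000 bases (246 genes), 0.10 at 1000 to 2000 bases (1248 genes), -0.16 at 2000 to 4000 bases (3485 genes) and -0.35 above 4000 bases (6789 genes). The histone genes are short: 23 of the 56 compared had up to 500 bases and 20 had 500 to 1000 bases, with median differences of 0.64 and 0.51. The 9 with 1000 to 2000 bases had a median of 0.20 and the 4 with 2000 to 4000 bases 0.24. The share of positive differences was 82.6% for histone genes and 57.9% for the other genes at up to 500 bases, and 75% and 68.3% at 500 to 1000 bases. It was 66.7% and 57.4% at 1000 to 2000 bases, and 75% (of 4 genes) and 36% at 2000 to 4000 bases. Higher in null by 1 or more were 4 of 23 histone genes and 3 of 38 other genes at up to 500 bases. At 500 to 1000 bases they were 4 of 20 and 5 of 246, and at 1000 to 2000 bases 1 of 9 and 32 of 1248. At 2000 to 4000 bases they were 0 of 4 and 43 of 3485. Lower by that size were 0 histone genes and 5, 12, 57 and 245 other genes of these length classes in turn. The part of length, of mitochondrial RNA (0.384% to 5.71% of TPM in null and 2.11% to 8.80% in wild-type libraries) and of CT010467.1 in the genotype difference was not tested.

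**Figure D5:**
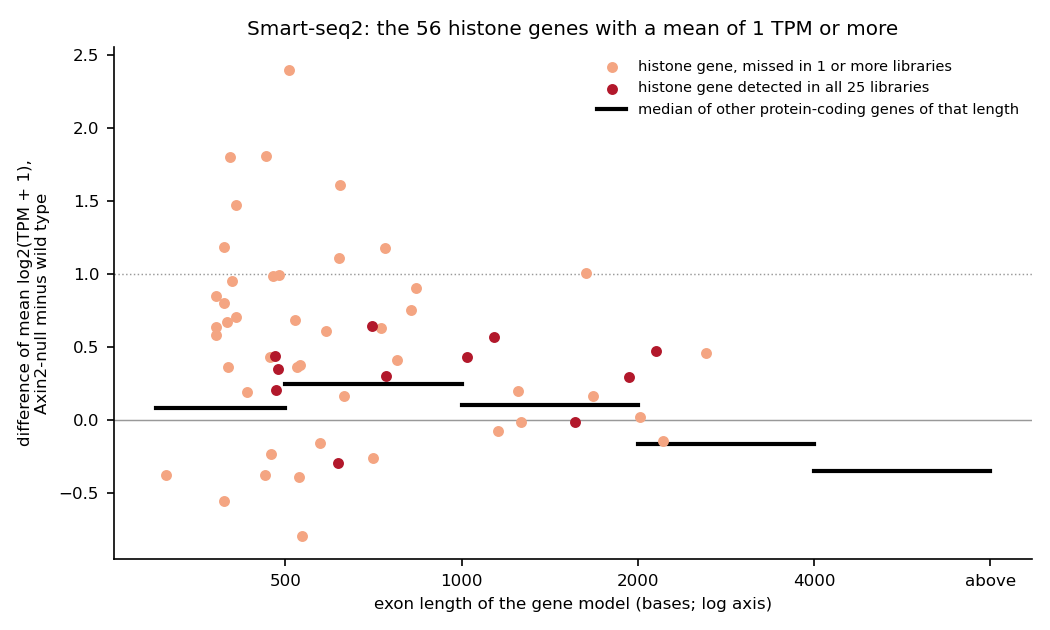
Difference of mean log2(TPM + 1), null minus wild type, of the 56 histone genes compared against the exon length of the gene model (log axis); dark points were detected in all 25 libraries, and black lines are the medians of the other protein-coding genes of each length class. The 9 points at or above the dotted line at 1 are genes missed in some libraries, and the black lines fall from 0.24 at 500 to 1000 bases to -0.35 above 4000 bases.

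Cluster 3 lies on the chromosome that MADM recombines, so its alleles are those of the Axin2-null or wild-type chromosome. Hist3h2ba had a difference of -0.30 and Hist3h2a, its neighbour on the same strand, of 0.47, at 10.3 to 106 TPM (median 51.0) in null and 5.21 to 63.0 TPM (median 33.5) in wild-type libraries. The 46 genes compared in cluster 1 had a median of 0.39 and the 8 in cluster 2 of 0.62. Axin2 itself was measured at 0 to 22.4 TPM (median 3.28) in null and 4.32 to 35.9 TPM (median 13.2) in wild-type libraries. RNA was thus counted at Axin2 in libraries labelled null, and what the Axin2LacZ allele leaves of its transcript is not given in the sources used here.

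The median genotype difference was below 0 for most of the lists around the histone genes. The 35 S phase genes had a median difference of -0.40, with 0 higher and 4 lower by 1 or more (Mcm10, Pola2, Ccne1 and Ccne2), and the 20 G2 and M phase genes had -0.17, with 1 lower (Kif11). The 29 transcription and processing genes had -0.27, with 3 lower (Sympk, Cpsf4 and Tut7), and the 23 chaperone genes -0.40, with 1 lower (Ubn1). The 12 replication-independent variants had 0.12, with none past that size, and the 9 genes of G1 arrest and cell cycle exit had -0.0046, with 1 lower (Ccng2). No gene of these lists was higher in null by 1 or more, against 1.39% of all genes. Slbp stood at 193 ± 57.0 TPM in null and 226 ± 85.8 TPM in wild-type libraries (SD over libraries), Npat at 5.13 ± 4.47 and 7.76 ± 7.08 TPM, Casp8ap2 at 28.2 ± 21.8 and 34.2 ± 45.6 TPM, and Lsm11 at 4.35 ± 4.21 and 4.57 ± 3.08 TPM. These differences were all smaller than the SD. Across the 25 libraries the summed histone TPM and the summed TPM of the S phase list had a Pearson correlation of 0.192 and a Spearman correlation of 0.12, and for the G2 and M phase list they were 0.312 and 0.308. Within wild-type libraries the Spearman correlations were 0.273 and 0.545 and within null libraries 0.341 and 0.495. Over all 25 libraries both signs turned without Hist1h2ap. For the sum of the other 66 genes the Pearson and Spearman correlations were -0.133 and -0.214 with the S phase list. With the G2 and M phase list they were -0.166 and -0.177. Within null libraries the signs did not turn, with Spearman correlations of 0.143 and 0.0934, and within wild-type libraries these were -0.14 and -0.154. Without the 2 libraries farthest from the median of the S phase sum, its Pearson correlation with the histone sum was 0.0307. Over all 25 libraries, shares of other RNA moved more with the histone sum. Spearman correlations were -0.556 for the mitochondrial share, whose median was 1.84% in null and 3.4% in wild-type libraries, and -0.479 for CT010467.1. Within null libraries they were -0.225 and -0.659 and within wild-type libraries -0.538 and -0.231, so this order did not hold in each genotype. These describe libraries that share a scaling to a fixed total.

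The 5 genes most like the summed histone level over the 25 libraries, among 7187 other genes averaging 10 TPM or more, were Uqcrq (Spearman correlation 0.763), Bola2 (0.754), Znhit1 (0.748), Polr2f (0.745) and Dctpp1 (0.745). None is a replication gene of the S phase list. Their own differences between genotypes were all positive, from 0.25 for Uqcrq and Znhit1 to 0.52 for Bola2. Uqcrq encodes a subunit of respiratory complex III and Polr2f a subunit shared by the nuclear RNA polymerases.

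The order of histone genes was related between the assays, with exceptions. Over the 67 genes, the mean CPM per kb in bulk and the mean TPM in Smart-seq2 had a Spearman correlation of 0.621 across genes, which are not independent and share sequence. Hist1h2ap and Hist3h2ba were ranked 1 and 2 in bulk and 1 and 3 in Smart-seq2. Hist1h2ao ranked 2 in Smart-seq2 with a mean of 398 TPM but held 78.0 counts in all over the 6 bulk libraries and ranked 43, and Hist1h2ah was at 106 TPM and 35.2 counts. Hist1h2ao shares 93.5% of its 50-base stretches with other genes, most with Hist1h2ap, so its level and that of Hist1h2ap depend on how reads were divided. In the other direction, Hist1h2bc ranked 4 in bulk (77.9 CPM per kb) and stood at 37.5 TPM in Smart-seq2, and Hist2h3c1, the gene called higher in ventral diencephalon, was detected in 1 of the 25 Smart-seq2 libraries. In all, 33 genes passed the minimum in both assays, 23 in Smart-seq2 only, 5 in bulk only and 6 in neither.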

How the data were processed

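The 67 genes and the gene lists were chosen with earlier results of these data known. The submitters' processing notes name STAR 2.7.0a, Trimmomatic, featureCounts, mm10 and GRCm38, with no role or order. Although the name of the bulk table says TPM, its columns total 17604411 to 20838226, and 46.6% of the values above 0 are whole within 0.0001. It was therefore read as the authors' deposited table of estimated counts, with the counting step not given in the sources used here. The counts were rounded and tested with edgeR 4.0.16 (TMM scaling, mean of 1 CPM or more, quasi-likelihood F test, Benjamini-Hochberg adjustment over 14701 genes, threshold 0.05) in R 4.3.3. CPM values are TMM-scaled. The Smart-seq2 values are TPM as the authors deposited them. TPM carries no depth, which is thus unknown here. For 13680 genes averaging 1 TPM or more the difference of mean log2(TPM + 1) was computed, which understates the change of low genes.

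Genes named are the 3 highest of each class in each assay, bulk calls, the 4 largest genotype differences, up to 3 called genes per direction of each list, and Npat, Casp8ap2, Slbp and Lsm11. Histone genes whose regions did not overlap, those near the threshold and those whose rank differed between assays were added after their values were seen. Exon lengths, transcripts and coordinates are GENCODE M21, and 50-base sharing was counted over its transcripts. Promoters are RefSeq windows, matched by older symbols for 62 genes. The edgeR script was tested on simulated data. Alternatives were DESeq2 1.42.0, limma 3.58.1, other scalings, minimums and pseudocounts, and leaving out each bulk library. Ratios of class sums and counts of the other lists were also computed without each library, a step added after seeing the data. Within-region library pairs differed by a chi-square of at least 8.52 per gene, which is more than counting error alone gives. That cannot show whether the libraries come from different embryos. Each library was counted as a replicate. No protein sequence or genome was used here.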

Additional observations from a re-analysis of the deposited data

How the results depend on the processing

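Fold changes of Hist1h1b, Hist1h2ap, Hist1h2br and Hist2h3c1 kept their direction under all 15 alternatives. Their calls were lost under 1, 1, 3 and 6 of these. DESeq2 called 5 histone genes in dorsal and 2 in ventral, and limma 5 and 1. The 1050 dorsal calls over all genes stayed within 1.5 times except in the leave-one-out fits, and the 1403 ventral calls also fell to 840 with at least 0.5 CPM in both regions (chosen after seeing the data). Leaving out each library gave 1 to 5 histone genes higher in dorsal, 0 to 2 in ventral, 500 to 1695 of all genes higher in dorsal and 839 to 1928 in ventral. The cause was not tested. Whether replicate numbers pair the samples was not settled. Correlations of deviations were 0.0992, 0.148 and 0.165 between equal numbers and -0.192 to 0.187 between unequal numbers. Library 3 of either region was negatively correlated with libraries 1 and 2 of the other region. With replicate number as a block, Hist1h2ag and Hist1h2ap were called in dorsal and Hist2h2aa1 in ventral, 2 and 1 genes. The calls of Hist1h1b, Hist1h2br and Hist2h3c1 were lost with this block.

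Near 0, signs reversed without a call. Hist3h2ba took log2 fold changes of -0.0015 with DESeq2's size factors, -0.0013 with DESeq2, -0.064 with the replicate block, -0.063 with limma and -0.033 with at least 0.5 CPM in both regions. Without 1 library, Hist3h2ba ranged from -0.46 to 0.24, Hist1h4d from -0.10 to 0.18, Casp8ap2 from -0.13 to 0.50 and Slbp from -0.036 to 0.10.

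Of the Smart-seq2 results, the median difference of 0.44 stayed positive (0.23 with medians to 0.65 with a pseudocount of 0.1). The count higher in null was 21 with a pseudocount of 0.1, 0 with 10, 14 without the libraries with under 9000 genes and 16 without those with CT010467.1 above 20%, both chosen after seeing the data. The count lower in null was 2 with a pseudocount of 0.1 and 1 with medians. Counts over all genes were not made at these settings. With no minimum in bulk, 65 histone genes were tested, with 4 higher in dorsal and 1 in ventral.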
